A study of Mus musculus with 3 samples.

Results

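The widest regions of ATAC-seq peaks, read as open chromatin, that recurred in the dentate gyrus of 3 mice were described here. They were found by joining the peaks of the 3 deposited ATAC-seq lists into 1 region wherever peaks of different lists overlapped by 1 bp or more. Kept were the regions on the 19 autosomes with a peak in all 3 lists and a joined span, from the first start to the last end, of 2000 bp or more. This gave 1020 wide shared regions, 2.87% of the 35482 autosomal regions held by all 3 lists and part of 84529 joined regions in all. The mice were adult C57BL/6 animals of 8 weeks with no allele or transgene named in the labels. The dentate gyrus, where the granule neurons of the hippocampus lie, was dissected from each animal and 1 library was made per animal, so the 3 lists stand for 3 animals. Each sample is labelled E24, a code left unexplained there, in a series on chromatin accessibility after neuronal activation, and no unstimulated group was analysed here. Because the tissue was dissected and not sorted, a region can be open in granule neurons, in other cells of the dissected piece, or in both.

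In ATAC-seq, the transposase Tn5 cuts DNA that is not wrapped tightly in nucleosomes and leaves sequencing adapters at the cuts. A peak is a stretch where many reads begin. Most promoters and enhancers are short open sites flanked by nucleosomes and give narrow peaks. Longer open stretches are known at strongly transcribed promoters rich in CpG and where several regulatory elements lie side by side, as in the enhancer clusters near cell identity genes. A wide peak can therefore be 1 long open stretch or several open sites that the peak caller did not separate, and peak positions alone do not tell these apart. No gene, repeat or sequence of the build mm9 was used here, so regions are given by mm9 position, counted from 1, with no gene assigned. Whether they hold repeated sequence or border assembly gaps was not examined. That includes every region named below, so a long or high-scoring peak is not by itself shown to be open chromatin.

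The lists held between 48769 peaks (replicate 3) and 68699 (replicate 2), with a median width of 353 to 504 bp. The files hold no read counts, so depth is unknown, and the deposited score, which has no unit, was read only as a rank within its list. A percentile here is the percentage of peaks of the same list with a lower score. Width and score come from the same peak calls that chose the regions. The differences between wide and other shared regions below are therefore descriptions, with no test.

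The wide regions spanned 2.64 Mb together, 8.85% of the joined length of all autosomal regions held by the 3 lists. Their median span was 2358 bp, and the quartiles were 2141 and 2759 bp. The other 34462 shared regions had a median of 681 bp. Most members were only moderately longer than the minimum, with 616 (60.4%) below 2.5 kb and 223 (21.9%) between 2.5 and 3 kb. A further 133 (13.0%) spanned 3 to 4 kb, and 48 (4.71%) spanned 4 kb or more. At the edge of the rule, the narrowest members spanned 2000 bp on chromosome 4 (8725165 to 8727164) and 2001 bp on chromosome 12 (70284179 to 70286179). The widest regions left out spanned 1999 bp on chromosome 14 (77555958 to 77557956) and 1998 bp on chromosome 3 (79370577 to 79372574). Regions of similar score lay on either side of the edge. The chromosome 12 region scored 1216, 1709 and 763 in replicates 1, 2 and 3, and the chromosome 3 region left out scored 1451, 1416 and 1026.

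Great width went with presence in every animal. Of 1087 autosomal regions of 2 kb or more in any combination of lists, 1020 (93.8%) had a peak in all 3, against 43.5% of all 81490 autosomal regions. Only 39 such regions were held by 2 lists and 28 by 1 list. A region joined from more lists can also grow wider, so the rule itself favours shared regions here.

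The animals did not contribute equally to the width. A single peak of 2 kb or more lay in 582 of the wide regions (57.1%) in replicate 1, in 813 (79.7%) in replicate 2 and in 96 (9.41%) in replicate 3. Replicate 2 set the first start of 59.2% of the regions and the last end of 59.4%, while replicate 3 set 3.63% and 3.53%. The widest peak in a region had a median of 2053 bp in replicate 1, 2230 bp in replicate 2 and 1203 bp in replicate 3. In 91 regions (8.92%) every list had a peak of 2 kb or more, in 382 (37.5%) 2 lists had one and in 454 (44.5%) 1 list had one. The remaining 93 (9.12%) passed 2 kb only by joining shorter peaks. The number of wide regions depended on replicate 2. Without it, and asking for both remaining lists, 622 regions passed, against 842 without replicate 1 and 1040 without replicate 3.

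In 3 regions, named after their values were seen, 1 list alone had the peak of 2 kb or more and that list was replicate 3. They were chromosome 1 from 180266170 to 180268351, chromosome 4 from 16089656 to 16091811 and chromosome 19 from 12085005 to 12087211. The chromosome 4 region was among the highest-ranked sites of every animal, with scores of 2302, 2615 and 1430 in replicates 1, 2 and 3. Its widest peaks were 1933, 1838 and 2013 bp, so the 3 animals gave nearly the same extent there.

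Wide regions ranked high in every list. The highest peak of a wide region stood at a median percentile of 94.4 in replicate 1, 95.0 in replicate 2 and 92.8 in replicate 3. In the other shared regions these medians were 69.0, 71.5 and 60.4. The difference in each animal, wide minus other, was 25.3, 23.5 and 32.4 points, a mean of 27.1 ± 4.7 (SD, n = 3). The top 10% of the list held 682 of the wide regions (66.9%) in replicate 1, against a background of 15.4% of the other shared regions. The corresponding values were 728 (71.4%) against 16.9% in replicate 2 and 595 (58.3%) against 11.7% in replicate 3. Among the others, the 1833 regions from 1500 bp to below 2000 bp came close, at 66.4%, 70.8% and 56.2% in replicates 1, 2 and 3. Their median percentiles were 94.1, 94.9 and 92.1, so high rank was not particular to spans of 2000 bp or more. The lists placed the same regions high. A total of 555 wide regions (54.4%) were in the top 10% of all 3 lists and 253 (24.8%) in that of none, while in the other shared regions 10.3% were in the top 10% of all 3.

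The ranks of a wide region in the 3 animals were also close to each other. The percentiles of the 3 lists lay within 10 points in 755 wide regions (74.0%), against 33.5% of the other shared regions, and the median range was 3.56 points against 16.5. Ranks near the top of a list have little room to differ, and how much of this closeness that gives was not tested. Across the 1020 regions, the Spearman correlation of the highest score was 0.95 between replicates 1 and 2, 0.92 between 1 and 3 and 0.89 between 2 and 3. Regions of a pair of lists share their 2 libraries, so these values describe the lists and carry no p.

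Rank did not keep climbing with span. It was highest in regions of 2 to 2.5 kb, where the median percentile was 95.3, 95.9 and 93.6 in replicates 1, 2 and 3. In the 48 regions of 4 kb or more, the medians were 86.5, 86.6 and 83.3, lower in every animal. The share in the top 10% was 70.0% ± 7.8 (SD, n = 3) at 2 to 2.5 kb, 61.6% ± 6.1 at 2.5 to 3 kb, 62.7% ± 5.0 at 3 to 4 kb and 34.0% ± 2.4 at 4 kb or more. Across the other shared regions, the Spearman correlation of span and highest score was 0.69, 0.73 and 0.56 in the 3 lists. Across the wide regions it was -0.13, -0.16 and -0.09. Read the other way, 12.4% of the shared regions with a mean percentile of 90 or more were wide, 3.74% of those between 80 and 90, and 1.72% of those between 70 and 80. Below 70, the share in each step of 10 points was at most 0.763%.

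**Figure D1:**
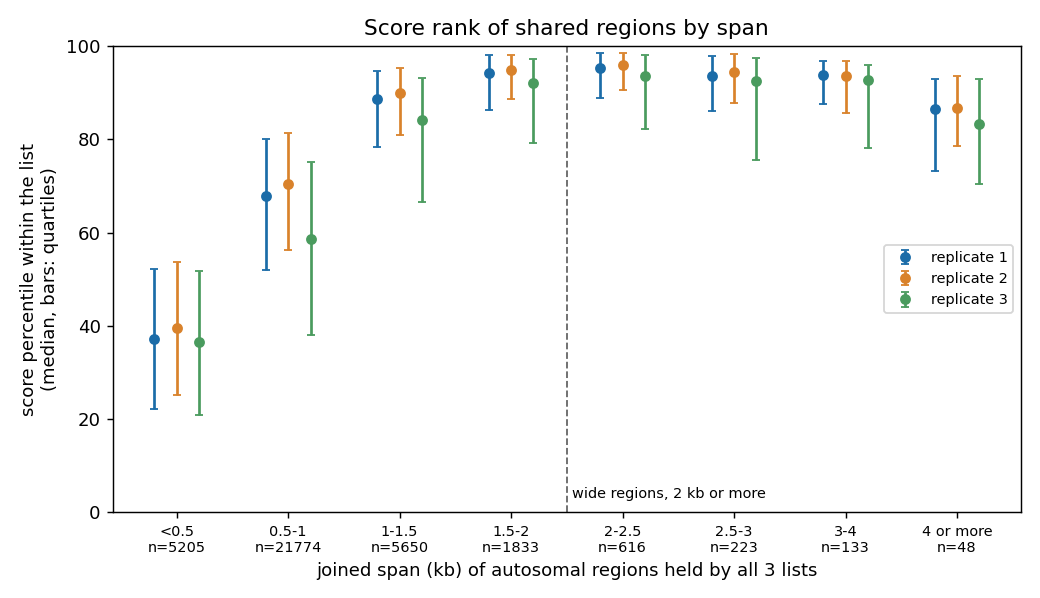
Score percentile within each list (vertical axis, median with quartile bars) of autosomal regions held by all 3 lists, grouped by joined span in kb (horizontal axis, with the number of regions). In each list the median is highest at 2 to 2.5 kb, at 93.6 to 95.9, and stands at 83.3 to 86.6 in the 48 regions of 4 kb or more.

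The 8 regions with the largest span were a mixed group. The widest was chromosome 13 from 120276197 to 120283541 (7345 bp). Its width came from replicate 1 alone, with 1 peak over the whole span and a score of 132, while the peaks of replicates 2 and 3 covered 2058 and 1084 bp at the left end, with scores of 316 and 127. Chromosome 8 from 19923557 to 19930844 (7288 bp) was covered by peaks of 6890 bp in replicate 1 and 7255 bp in replicate 2, and of 3128 bp in replicate 3. There the shortest peak had the highest rank, at percentile 86.1 of replicate 3 against 56.0 and 44.4 in replicates 1 and 2.

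Chromosome 17 from 39979761 to 39985964 (6204 bp) was wide and high in every animal. Its single peaks were 5955, 6204 and 5916 bp long and scored 2430, 1960 and 1358 in replicates 1, 2 and 3, percentiles of 99.98, 99.89 and 99.91. The 3 lists overlapped over 5916 bp, the longest such stretch of all wide regions. It was also the wide region farthest from any other shared region, at 988 kb. Chromosome 14 from 84842196 to 84848574 (6379 bp) had 1 peak in each list as well, of 6297, 6321 and 4894 bp, at lower scores of 411, 477 and 353.

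The other 4 were divided by a list or held little in common. Chromosome 14 from 88865432 to 88871803 (6372 bp) had single peaks of 5500 and 6288 bp in replicates 1 and 2 and a pair of peaks of 1163 and 1079 bp in replicate 3. Chromosome 17 from 3078981 to 3085016 (6036 bp) was a single peak of 5852 bp in replicate 2, while replicates 1 and 3 each divided it in nearly the same place. Replicate 1 ended its first peak at base 4451 of the region and began the next at base 4581, and replicate 3 ended at base 4334 and began again at base 4656. Chromosome 2 from 84724633 to 84730564 (5932 bp) was also 1 peak in replicate 2 and divided in both others. In chromosome 10 from 57685588 to 57691536 (5949 bp), peaks of 5176 and 4160 bp in replicates 1 and 2 met a peak of only 829 bp in replicate 3, whose score of 59.9 stood at percentile 17.2 of that list.

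**Figure D2:**
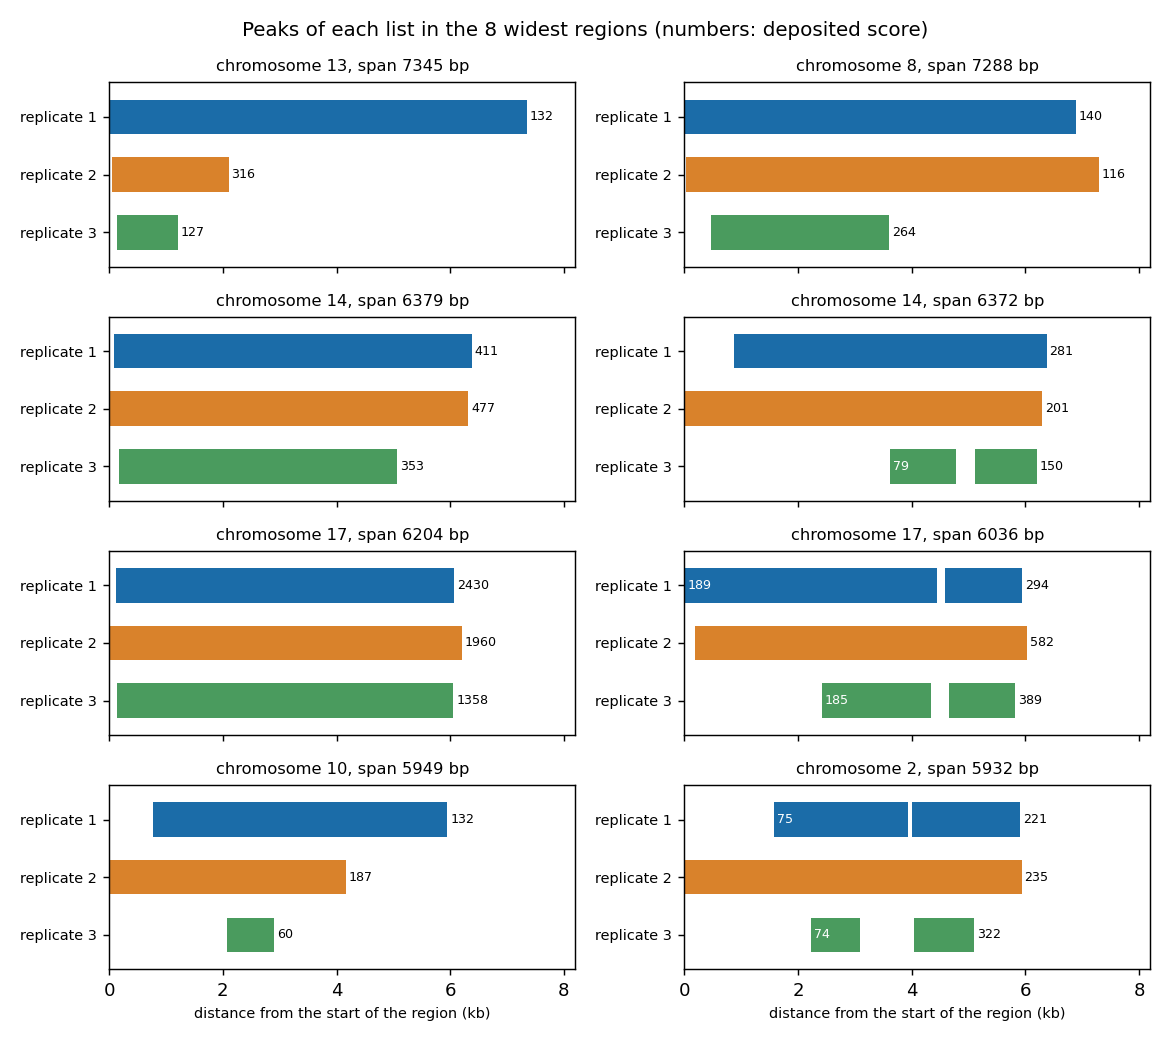
Peaks of each list (bars, 1 row per replicate) in the 8 regions of largest span, by distance in kb from the start of the region, with the deposited score of each peak printed on or beside its bar. The 6204 bp region of chromosome 17 was covered almost end to end in all 3 animals, while the 7345 bp region of chromosome 13 reached its span in replicate 1 only.

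A joined span is not a length open in every animal. Bases under a peak of all 3 lists made up 54.7% of the joined length of the wide regions, bases under exactly 2 lists 27.7% and bases under 1 list 17.7%. In the other shared regions these shares were 56.2%, 25.7% and 18.0%, close to those of the wide regions. The length common to the 3 lists had a median of 1380 bp in wide regions and 375 bp in the others. It reached 2000 bp or more in 130 wide regions (12.7%) and stayed below 500 bp in 47. Peaks covered a median of 91.1% of the span of a wide region in replicate 1, 98.2% in replicate 2 and 57.3% in replicate 3. The other shared regions had nearly the same values, 90.9%, 94.7% and 59.5%. A difference of 0.46 ± 2.91 points (SD, n = 3) was smaller than its spread over the lists. Replicate 3 had the lowest coverage in both sets.

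In 3 wide regions, named after their values were seen, no base was common to all 3 lists, because 1 long peak linked shorter ones. They were chromosome 1 from 34733854 to 34735946, chromosome 3 from 84018242 to 84020335 and chromosome 18 from 3116707 to 3118839. In the chromosome 1 region, a peak of 2093 bp in replicate 2 (score 279) linked peaks of 582 and 466 bp in replicates 1 and 3 (scores 64.0 and 71.0).

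The 130 regions with 2000 bp or more under all 3 lists ranked higher than the wide regions as a whole. Their median percentiles were 96.6, 97.1 and 95.0, and 90 of them (69.2%) were in the top 10% of every list. After the chromosome 17 and chromosome 14 regions already named, the longest common stretches lay on chromosome 1 (24618164 to 24623092, with 4745 bp in common), chromosome 10 (36855809 to 36861670, with 4325 bp) and chromosome 14 (45289232 to 45294142, with 4074 bp). The chromosome 1 region had a score of exactly 3100 in every list. The same was true of 1 other wide region, chromosome 2 from 22442587 to 22446263, with peaks of 3518, 3632 and 3338 bp. These were 2 of the 5 shared regions with a peak at that value, so they tied in rank. It was the highest score in replicates 1 and 3, while replicate 2 held a score of 3213 as well.

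Most wide regions were called as 1 piece. In 676 of them (66.3%, exact Clopper-Pearson 95% interval 63.3% to 69.2%, which covers the counting of regions only) every list had a single peak, against a background of 95.2% in the other shared regions. Where a list divided a region, it was most often replicate 3. Replicate 1 had 2 or more peaks in 114 wide regions (11.2%), against 1.08% of the other shared regions. The values were 63 (6.18%) against 0.792% in replicate 2 and 285 (27.9%) against 3.60% in replicate 3. Division was thus 10.3, 7.80 and 7.76 times as frequent in wide regions, a mean of 8.63 ± 1.47 (SD, n = 3). The lists themselves differed widely in how often they divided a region. These ratios compare regions of unlike length, and the part of length in them was not tested. Shared regions below 500 bp were never divided, while those from 1500 bp to below 2000 bp were divided in 6.00%, 3.66% and 15.0%. The mean share of wide regions divided, over the lists, was 15.1% ± 11.4 (SD, n = 3). With replicate 3 left out and the peaks of replicates 1 and 2 joined anew, it was 8.22% of the 1040 regions that then passed.

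Longer regions were divided more often in replicate 3. Its share was 22.9% at 2 to 2.5 kb, 31.4% at 2.5 to 3 kb, 36.8% at 3 to 4 kb and 52.1% at 4 kb or more. Replicate 1 stood at 9.74%, 13.0%, 11.3% and 20.8%, and replicate 2 at 4.71%, 5.38%, 12.8% and 10.4%. A longer stretch also offers more room for a gap, and the part of this in the order was not tested.

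**Figure D3:**
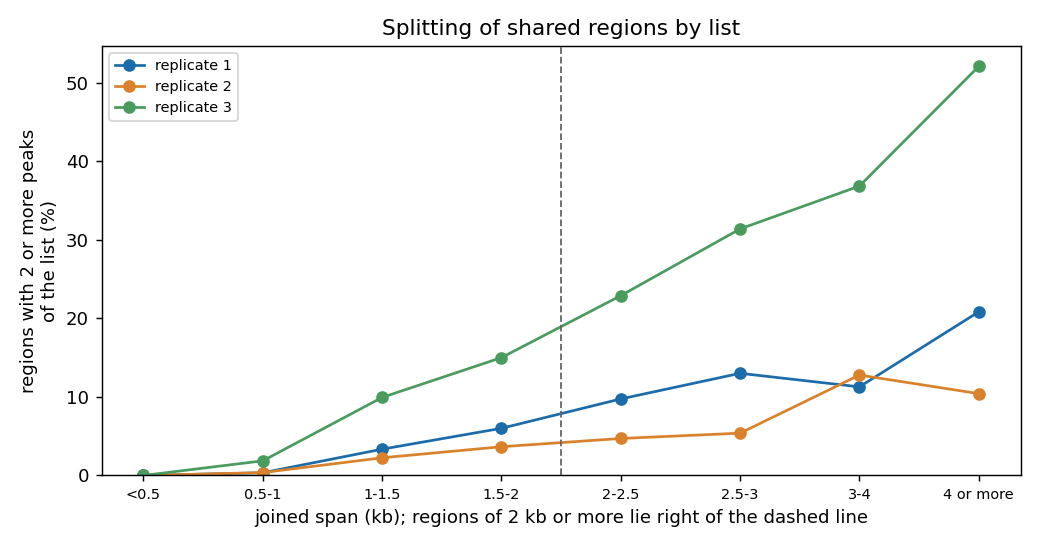
Share of autosomal regions held by all 3 lists that contain 2 or more peaks of a list (vertical axis, %), by joined span in kb, 1 line per replicate. Replicate 3 lies highest from 0.5 kb on and reaches 52.1% at 4 kb or more, against 20.8% in replicate 1 and 10.4% in replicate 2.

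A pattern of 1 peak in replicates 1 and 2 and 2 peaks in replicate 3 was the most frequent form of division, with 180 regions (17.6%). Next were 44 regions (4.31%) with 2 peaks in replicates 1 and 3 and 1 in replicate 2, and 35 (3.43%) divided into 2 in replicate 1 alone. All 3 lists divided 17 regions. By the joining rule, a gap at the same base in all 3 lists ends a region, so such a site counts as separate regions. This bears on the count of regions with a single peak in every list as well, and its part was not tested. Gaps between the pieces were short. Their median length was 118 bp in replicate 1, 71.0 bp in replicate 2 and 203 bp in replicate 3, and the longest were 1813, 581 and 2598 bp. In the other shared regions the median gaps were 55.0, 39.0 and 66.0 bp.

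Gaps of different animals often fell in the same place, though not for every pair. Of 72 wide regions divided in replicates 1 and 3, 57 (79.2%) had overlapping gaps, and of 40 divided in replicates 2 and 3, 28 (70.0%) did. Of 23 divided in replicates 1 and 2, 4 (17.4%) did. In the other shared regions the shares were 71.6%, 72.3% and 42.9%. The gaps of replicate 3 were the longest, which makes an overlap with them easier, and the part of gap length in these shares was not tested. The joining rule also limits them. Overlapping gaps of 2 lists stay inside 1 region only where a peak of the third list crosses their common part. Peaks of replicate 3 covered a median of 57.3% of a wide region, against 91.1% in replicate 1 and 98.2% in replicate 2. The pairs are thus not on equal terms, and the part of the rule was not tested.

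The most divided regions held 7 peaks over the 3 lists, and 4 regions did so. On chromosome 14 from 20453124 to 20455457, replicate 3 had 4 peaks of 486, 283, 858 and 285 bp where replicate 2 had 1 of 1707 bp and replicate 1 had 2 of 1957 and 351 bp. On chromosome 13 from 76192309 to 76195573, all 3 lists divided the region, into 2, 2 and 3 peaks. Replicates 1 and 2 both placed a small last peak there, of 620 and 649 bp, beginning at bases 2591 and 2617 of the region. On chromosome 10 from 26093467 to 26096224, replicates 1 and 2 ended their first peak close together, at bases 2032 and 2047 of the region, while replicate 3 had 3 peaks. On chromosome 1 from 72917437 to 72920986, replicate 1 held 3 small peaks with scores of 79.7, 60.1 and 80.2, and replicate 2 had a peak of 2828 bp scoring 278. Of the regions tied at 6 peaks, the first by chromosome and start was chromosome 1 from 26742803 to 26745336, with 2 peaks in every list, a form shared by 14 regions.

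Wide regions were found on every autosome, in unequal shares. On chromosome 13, 91 of 2049 shared regions (4.44%, exact 95% interval 3.59% to 5.43%) were wide. Chromosome 18 followed with 70 of 1779 (3.93%, 3.08% to 4.95%) and chromosome 3 with 102 of 2777 (3.67%, 3.005% to 4.44%). These were the 3 chromosomes whose interval lay above the 2.87% of all autosomes. Together they held 25.8% of the wide regions and 18.6% of all shared regions. At the other end, chromosome 7 had 10 of 1076 (0.929%, 0.447% to 1.70%), chromosome 11 had 29 of 1566 (1.85%, 1.24% to 2.65%) and chromosome 4 had 44 of 2212 (1.99%, 1.45% to 2.66%), with intervals below the value of all autosomes. The intervals cover the counting of regions only, and they treat neighbouring regions as independent. On chromosome 13, the windows from 23 to 24 Mb and from 21 to 22 Mb, described below, held 9 and 7 of the 91 wide regions. The part of such groups in the order of the chromosomes was not tested. The share was taken of the shared regions on the same chromosome, so it is not a number per length. Whether the density of peaks bears on it through the joining was not tested. By the number per length between the outer peaks, chromosome 18 had 7.98 wide regions per 10 Mb, chromosome 13 had 7.77 and chromosome 7 had 0.670.

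**Figure D4:**
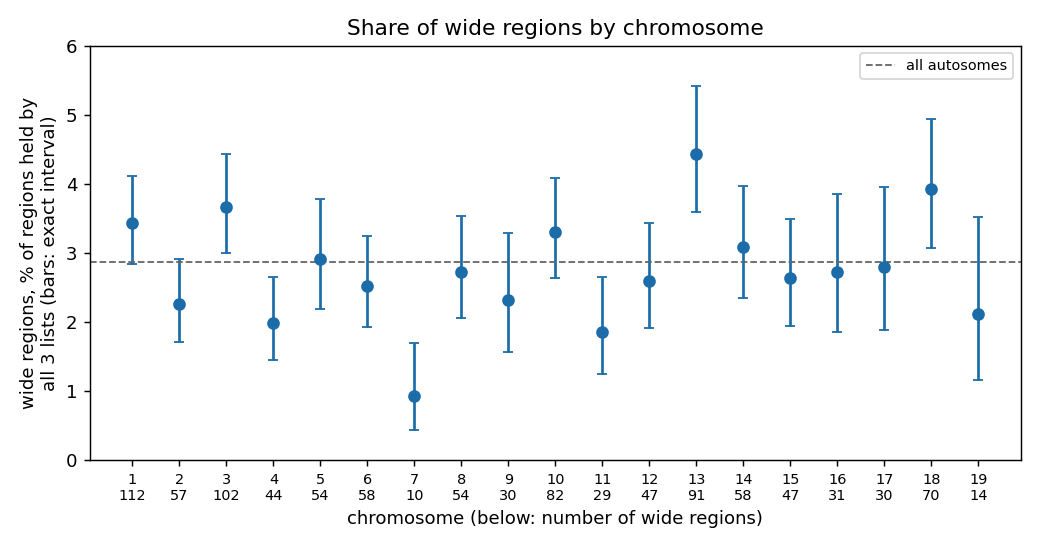
Wide regions as a percentage of the regions held by all 3 lists on each autosome (points, with exact 95% intervals that cover the counting of regions only), with the number of wide regions below each chromosome and the value of all autosomes as a dashed line. Chromosome 13 stands highest at 4.44% and chromosome 7 lowest at 0.929%.

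Chromosomes 13 and 7 lay at or near the ends of the order in the separate lists too, while other chromosomes changed places. Single peaks of 2 kb or more were 1.79%, 2.07% and 0.371% of all peaks on chromosome 13 in replicates 1, 2 and 3. On chromosome 7 the values were 0.307% and 0.425%, and replicate 3 had 0 such peaks there. Chromosome 13 ranked first, first and second of the 19 autosomes in the 3 lists, and chromosome 7 ranked last, in replicate 3 tied with chromosome 16. By this measure chromosome 18 ranked 4, 2 and 5, chromosome 3 ranked 2, 3 and 7, and chromosome 6 came first in replicate 3 after ranks of 11 and 12 in replicates 1 and 2. These peaks build the joined regions, so the lists do not test the order independently. The score rank of all shared regions did not differ in 1 direction between these chromosomes. Their median percentile in replicates 1, 2 and 3 was 70.7, 72.7 and 62.7 on chromosome 13 and 70.6, 76.3 and 58.4 on chromosome 7, so replicate 2 was lower and replicate 3 higher on chromosome 13. Along the chromosomes, each cut into 10 equal parts between its outer peaks, the wide share was 3.52% (2.94% to 4.19%) in the first part and 2.28% (1.79% to 2.87%) in the last.

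Wide and other shared regions lay at nearly the same distance from their nearest neighbour. The median distance to the nearest other region held by all 3 lists was 17.5 kb for wide regions and 18.2 kb for the others. Another shared region lay within 10 kb of 325 wide regions (31.9%, exact 95% interval 29.0% to 34.8%), near the background of 31.0% in the other shared regions. Within 100 kb on either side, the median number of other shared regions was 4 in both sets. The mean was 4.70 around wide regions and 4.02 around the others. Regions of 1 or 2 lists within the same reach had a mean number of 5.59 around wide regions and 4.89 around the others. Wide regions also neighboured each other. The nearest shared region was itself wide for 75 wide regions (7.35%) and for 2.504% of the others, and a wide region lay within 100 kb of 16.8% and 11.5%. Chromosomes rich in wide regions enter these shares, and that part was not tested.

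**Figure D5:**
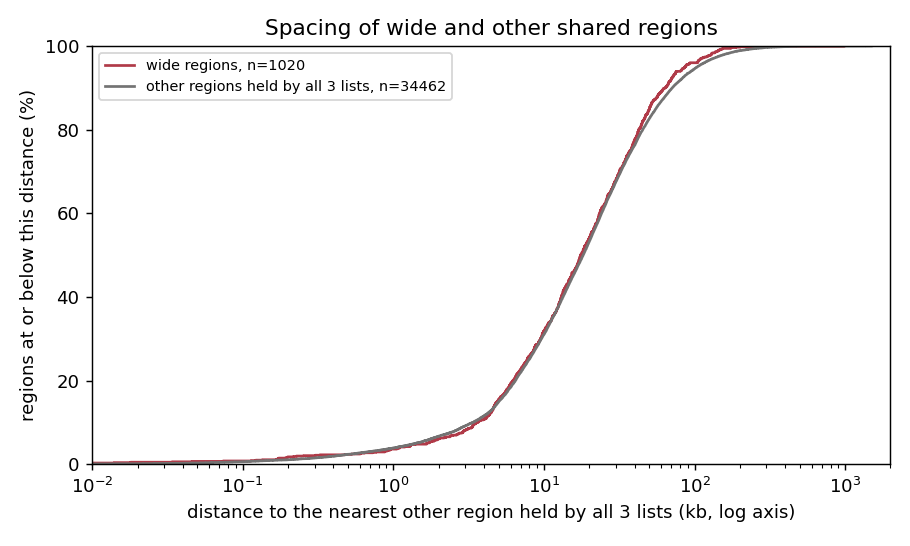
Cumulative share (vertical axis, %) of wide and of other shared regions by the distance in kb (log axis) to the nearest other region held by all 3 lists. The curves run close together, with medians of 17.5 and 18.2 kb.

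Between neighbouring wide regions the distances were long. The median distance from a wide region to the nearest other wide one was 532 kb, and 29 of 1001 neighbouring pairs lay within 10 kb. The closest pair lay on chromosome 18, where the region from 60778733 to 60782211 (3479 bp) ended 171 bp before that from 60782383 to 60785468 (3086 bp). In both, replicate 2 had a single long peak of low score, 3426 bp at 64.4 and 3086 bp at 56.5. Replicates 1 and 3 had peaks of 1074 and 475 bp in the first region, with scores of 70.2 and 140. In the second, replicate 1 had a peak of 2923 bp scoring 132 and replicate 3 had 2 small peaks.

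The 4 windows of 1 Mb with most wide regions differed in rank, and they are described after their values were seen. On chromosome 13 from 23 to 24 Mb, 9 of 48 shared regions were wide, and from 21 to 22 Mb 7 of 45 were. The wide regions of the first window had median percentiles of 95.4, 93.5 and 92.8 in the 3 lists, and 4 of the 9 were in the top 10% of every list. The 39 other shared regions there had medians of 78.3, 74.1 and 70.5. In the second window the medians were 95.1, 95.4 and 94.3, with 5 of 7 in the top 10% of every list. The 38 other shared regions of that window ranked high as well, at 91.9, 91.2 and 89.1. An example from the first window is 23712382 to 23714756, with single peaks of 2362, 2281 and 2114 bp and scores of 1263, 1440 and 888.

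On chromosome 5 from 15 to 16 Mb, 8 of 21 shared regions were wide (38.1%), with a median span of 4135 bp. Here the wide regions had medians of 54.9, 60.0 and 44.2, below the 71.6, 69.8 and 56.9 of the 13 other shared regions of the window, and none of the 8 was in the top 10% of all 3 lists. The common length was also a smaller part of the span, with a median of 34.1% against 72.3% and 58.3% in the first and the second chromosome 13 window. On chromosome 14 from 70 to 71 Mb, 6 of 33 shared regions were wide, with medians of 62.6, 76.0 and 50.5 and a common length of 33.3%. The other shared regions of that window had medians of 62.1, 72.8 and 54.5, so the order of wide and other differed between the lists.

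Low-ranking regions were a smaller share of the wide regions than of the others. The highest peak stood below the middle of the list in 26 wide regions (2.55%) of replicate 1, 25 (2.45%) of replicate 2 and 68 (6.67%) of replicate 3, against 26.0%, 21.9% and 37.7% of the other shared regions. A total of 11 wide regions (1.08%) were below the middle in every list, against 12.7% of the others. The lower quartile of the percentile was 87.3, 88.9 and 80.3 in wide regions for replicates 1, 2 and 3. It was 86.3, 88.6 and 79.3 in the shared regions from 1500 bp to below 2000 bp. A high lower quartile was thus not particular to spans of 2000 bp or more. The lowest mean percentile belonged to chromosome 6 from 54453247 to 54456934 (3688 bp), with scores of 64.3, 92.9 and 51.8 in replicates 1, 2 and 3. Replicate 2 had 1 peak over the whole span there, while replicates 1 and 3 had peaks of 1092 and 451 bp. Chromosome 3 from 83960099 to 83962445 scored 56.6, 80.7 and 68.5, and chromosome 1 from 173001168 to 173004071 scored 91.0, 71.1 and 56.3. Chromosome 5 from 15158376 to 15162594, in the window named above, scored 86.2, 74.2 and 56.5 with peaks of 4138, 3992 and 789 bp. In chromosome 2 from 44963006 to 44966297 the animals differed in rank. The scores of 50.7 and 51.6 in replicates 1 and 3 stood at percentiles of 0.933 and 3.39, and the score of 203 in replicate 2 at 65.3. Long peaks of low rank stood beside short ones in these regions. The longest, of 4138 bp on chromosome 5, was at percentile 33.3 of replicate 1, and the shortest, of 371 bp on chromosome 1, was at 11.5 of replicate 3.

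Some wide regions ranked quite differently in replicate 3, and those named here were chosen for that difference after their values were seen. On chromosome 15 from 89328558 to 89331288, replicates 1 and 2 had peaks of 1798 and 2731 bp at percentiles of 85.4 and 82.5, and replicate 3 had a peak of 275 bp at 7.94. On chromosome 3 from 53959144 to 53961234, the percentiles were 83.9, 87.5 and 20.9. The reverse was seen on chromosome 8 in the 7288 bp region named above, with percentiles of 56.0, 44.4 and 86.1. It was also seen on chromosome 5 from 15194618 to 15197409, with 26.8, 37.9 and 62.3. With 1 list per animal, a difference of 1 list at 1 region has no replicate check.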

How the data were processed

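The 3 samples are ATAC-seq libraries of the dentate gyrus, 1 per animal, in 1 group. The authors aligned reads to mm9 with Bowtie2, per the submitters' processing notes, and the peak names in the deposited lists are those of MACS. For versions, MACS settings, duplicate treatment and a Tn5 shift of read ends: not given in the sources used here. Such settings can change how far a peak extends and whether close peaks are merged. Each deposited line gives a position, a name and a score of the authors' peak caller, with no unit. Peaks were joined at 1 bp of overlap, ranked within lists, and measured per region. Means and SD are over the 3 lists. The regions named follow a rule: the 8 of largest span, the 5 with the longest length under all lists, the 5 with most peaks (ties to the lower chromosome number and start), the 5 of lowest mean percentile, the closest pair, the most distant one, and 2 on each side of the span minimum. Members and measures were chosen with earlier results of these data known. Joining and splitting were tested on simulated lists in which 1 list always spanned the whole region. Regions chained from partly overlapping peaks were not simulated. Python 3.11.15 was used with scipy 1.17.1 for intervals, numpy 2.4.6 with pandas 2.3.3 for joining, and matplotlib 3.10.9. Alternatives changed the span minimum, the joining rule, the peaks used, the chromosomes and the replicates. Gene and promoter tables of another build, GRCm38, were not used, and no sequence is printed.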

Additional observations from a re-analysis of the deposited data

How the results depend on the processing

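Of 132 alternative values for 11 results, 98 stayed within the bound, which was 1 SD over the lists, the exact 95% interval of a share, or a factor of 1.5 for the count. For shares that differ widely between lists this bound is loose. A span minimum of 1500, 2500 or 3000 bp gave 2853, 404 or 181 wide regions, which were 8.04%, 1.14% or 0.510% of the shared regions. Asking for 2000 bp or more under all 3 lists gave 130 regions (0.366%). The share of shared regions that were wide was 4.80% in the highest-scoring 50% of each list and 3.18% when gaps of up to 150 bp were joined. A single peak in every list was found in 75.6%, 57.9% and 54.7% of the regions at 1500, 2500 and 3000 bp. It was found in 53.1% under the common-length rule, 85.9% in the highest-scoring 50% and 59.2% with gaps joined. The mean share in the top 10% was 58.7% at 2500 bp, 55.1% at 3000 bp and 80.5% under the common-length rule, which also gave a mean of 84.6% with a peak of 2000 bp or more in a list. Another shared region within 10 kb was found for 37.0% at 3000 bp and 17.0% in the highest-scoring 50%. Fewer shared regions remain in the latter setting, and the part of this in its value was not tested. Relative to all autosomes, the wide share of chromosome 13 was 1.54, and 2.20 at 3000 bp and 2.13 under the common-length rule. That of chromosome 18 was 1.37, and 1.76 at 3000 bp. That of chromosome 7 was 0.32, and 0.67 at 1500 bp. Chromosomes 13 and 18 stayed above 1 and chromosome 7 below 1 under every alternative run; these chromosomes, and the alternatives for them, were picked after seeing the data. Leaving out 1 replicate gave 622 to 1040 wide regions, 1.67% to 2.19% of those shared, a single peak in every list in 71.5% to 85.4% and a neighbour within 10 kb in 32.5% to 41.0%. Fewer lists then had to hold a single peak, and the regions that passed changed as well. The causes of the shifts in this paragraph were not tested. Read depth is unknown, so a short or absent peak is not shown to be closed chromatin. No paired analysis was possible because the samples form 1 group.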

Other observations

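Wide regions also occurred on the sex chromosomes, which lie outside the set described above. On the X chromosome, 45 of 1317 regions held by all 3 lists were wide (3.42%), and on the Y chromosome 2 of 25 were. The largest on the Y ran from 2779428 to 2786669 (7242 bp), with 1 peak in each list and scores of 347, 386 and 516 in replicates 1, 2 and 3, and 5529 bp under all 3 lists.

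On the X chromosome from 120 to 123 Mb, a stretch singled out after its values were seen, 9 of 37 shared regions were wide. They included the 3 regions of 4 kb or more on that chromosome, the largest from 120124296 to 120130447 (6152 bp). Median percentiles of the 9 were 79.6, 77.1 and 56.6 in the 3 lists, and 0 of them were in the top 10% of every list. By contrast, the wide region of the X chromosome from 96131805 to 96134026 (2222 bp) scored 1642, 2239 and 1151.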
